A study of Mus musculus with 12 samples.

Results

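The comparison described here sets livers of MOER mice against livers of wild type mice when both had received PPT, a compound that activates oestrogen receptor alpha selectively. It covers 4 of the 12 arrays of the series, 2 for each genotype, and every probe set brighter than the 40th percentile of its own array on at least 2 of the 12 arrays. That rule kept 19119 of 28815 probe sets, and the choice used brightness on all arrays and not the difference between the genotypes. Transcripts were read in whole liver on the Affymetrix Mouse Gene 1.0 ST array, which carries many short probes along each transcript. The values are the deposited linear intensities.

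All mice were ovariectomized at 3 months of age, were labelled C57BL/6, recovered for 1 week and were then injected intraperitoneally on 3 days. The agonist was given at 100 µg per day and the control mice got 0.1 mL of oil. Wild type mice have the receptor in all its places. MOER mice, per the labels, have membrane receptor alpha only, and ERKO mice lack the receptor. How the MOER and ERKO lines were made, and in which cells the membrane receptor is found, the sources used here do not say. RNA of 3 animals was pooled for each array and the labels state that the study was done again, but not that the arrays of a group hold separate animals. The p-values therefore measure the spread between these arrays, which may be technical. The oil arrays of both genotypes and the PPT arrays of ERKO mice serve below only as points of comparison.

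Oestrogen receptor alpha is a hormone-activated transcription factor that binds DNA in the nucleus, and a smaller pool at the plasma membrane signals through kinases. In liver, oestrogens acting through this receptor are known to alter bile acid and lipid synthesis, secreted plasma proteins, sex-dependent steroid and drug metabolism, and the production of cholesterol-rich bile. A genotype with the membrane pool alone, set against wild type under the same agonist, asks which transcripts differ when the nuclear receptor is missing.

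Esr1, the gene of the receptor (probe set 10367600), gave 309 and 325 in the wild type arrays and 117 and 131 in the MOER arrays. The groups did not overlap, and the log2 difference, MOER minus wild type, was -1.25 ± 0.093 (standard error of the fit, n = 2 arrays a group, limma with Benjamini-Hochberg adjusted p = 2.49e-06). MOER and ERKO livers given PPT did not differ past the threshold, ERKO arrays reading 146 and 162 (difference -0.27 ± 0.093, adjusted p = 0.0595). Which part of the transcript the probe set reads was not tested, so it checks the loss of the wild type transcript and not the membrane receptor. The defining hepatocyte markers were bright in all 4 arrays, with albumin (Alb) at 20724 and 19515 in wild type and 20055 and 20178 in MOER (difference 0.00).

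A second label check did not come out as labelled. H2-Ea, which encodes the alpha chain of the class II histocompatibility molecule I-E (probe set 10450161), read 17.2 and 16.3 in wild type and 2656 and 2603 in MOER livers given PPT. Under oil it read 15.4 and 19.8 in wild type and 5605 and 5622 in MOER, and ERKO livers given PPT read 18 and 16.8. As background, C57BL/6 mice carry an H2-Ea allele that is not transcribed, so the MOER arrays stand apart from their strain label at this gene. Other class II genes, examined after the H2-Ea values were seen, were not called between the genotypes: H2-Aa differed by 0.093, H2-Ab1 by 0.16, H2-Eb1 by 0.27 and the invariant chain Cd74 by 0.26 on the log2 scale. The part of strain background in the differences below was not tested.

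Across the 12 arrays the median intensity lay between 77.5 and 85.26, and the 2 arrays of a group agreed closely here (Pearson's r across probe sets 0.996 in wild type PPT and 0.995 in MOER PPT). More than 2-fold differences between such arrays occurred at 9 and 2 probe sets. Pancreatic acinar transcripts stood out in the MOER oil arrays, where 13 of them summed to 47090.0 and 36868 against 610.1 and 735 in wild type oil, and skeletal muscle transcripts in the ERKO PPT arrays, where 14 summed to 20114 and 19021. In the 4 arrays compared here both sums were low, 793 and 717 in wild type and 862 and 824 in MOER for acinar cells and 912 and 865 in wild type and 954 and 912 in MOER for muscle.

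The genotypes differed widely under PPT. At an adjusted p under 0.05, 2947 probe sets were higher in MOER (15.4% of those tested) and 3847 were lower (20.1%), 6794 or 35.5% in all, and 8524 had an unadjusted p under 0.05. Of the called probe sets, 521 were at least 2-fold higher (2.73%) and 708 at least 2-fold lower (3.70%). The median log2 difference of all tested probe sets was 0.026 and the median standard error 0.121. Without wild type PPT replicate 2 the number called was 4418. Counted once per gene, by the probe set of highest mean, 2347 of 13987 genes were higher in MOER (16.8%) and 2862 lower (20.5%), with a median of 0.035. These shares are the background against which the gene lists below should be read. Under oil the same genotype contrast, on other arrays, called 1082 probe sets (5.66%), 407 higher (2.13%) and 675 lower (3.53%). That count was 249 to 433 when any 1 of its 4 arrays was left out, and higher calls were then the more numerous in 3 of the 4 cases (144 against 129 without wild type oil replicate 1, 145 against 139 without wild type oil replicate 2 and 129 against 120 without MOER oil replicate 2). It was 782 higher and 888 lower with median centring, and 1264 higher and 2068 lower without both ERKO oil arrays, a setting chosen after seeing the data.

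**Figure D1:**
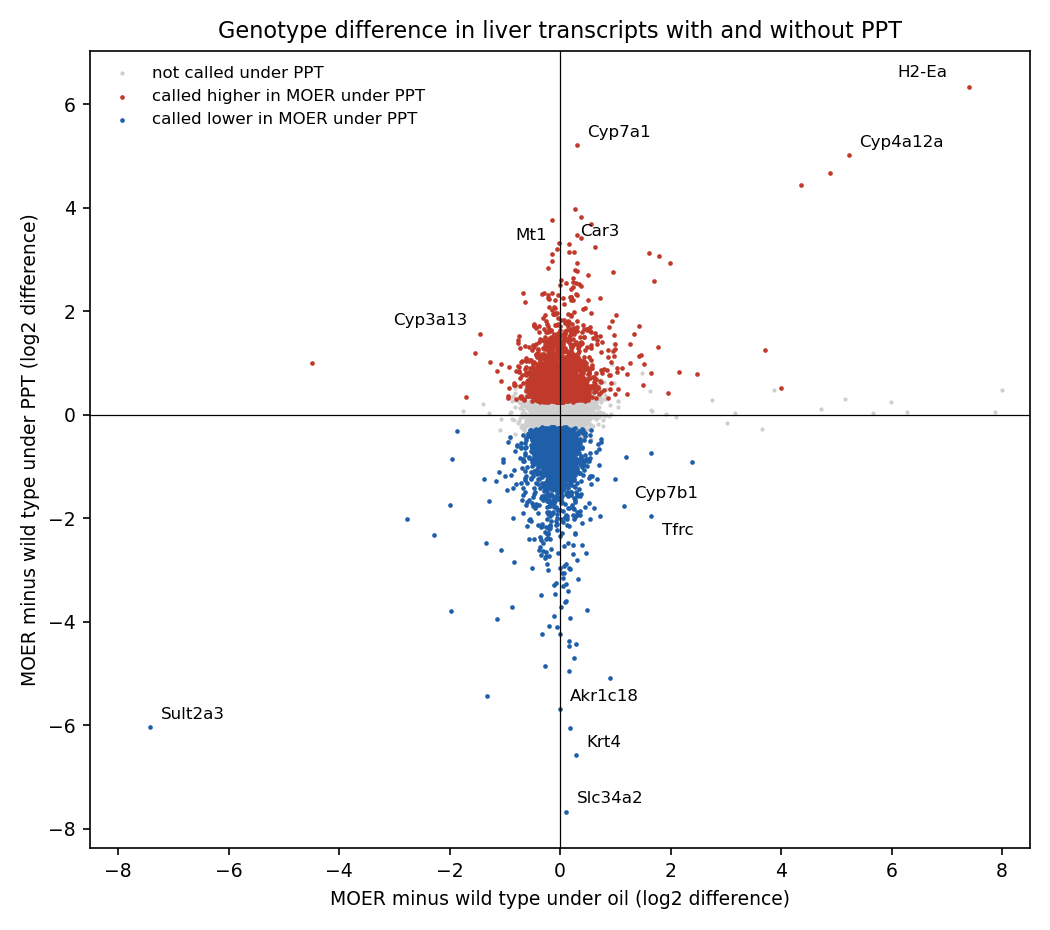
Each point is a tested probe set. The vertical axis is the log2 difference MOER minus wild type under PPT and the horizontal axis the same difference under oil. Genes called under PPT are in red (higher in MOER) and blue (lower). Most coloured points lie along the vertical axis, while H2-Ea, Cyp4a12a and Sult2a3 lie along the diagonal and the grey points at the far right include pancreatic transcripts of the MOER oil arrays.

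The plot of genotype differences with and without PPT sets each difference beside its counterpart under oil. Of 427 genes called and at least 2-fold higher under PPT (3.05% of genes), 58 were also called higher under oil. Of 523 called and at least 2-fold lower under PPT (3.74%), 52 were also called lower under oil. Over all genes, 2.14% were called higher and 3.64% lower under oil. Of the 6794 probe sets called under PPT, 3640 (53.6%) also had a genotype difference that differed between PPT and oil by the interaction term. Over all tested probe sets that term called 4124 (21.6%). The term contains the PPT difference itself, so a larger share among probe sets called under PPT is built in.

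The genes highest in MOER held enzymes of bile acid, steroid and drug metabolism. With every array raised to at least its own 40th percentile, H2-Ea and then Cyp7a1 had the highest differences. Cyp7a1, whose enzyme limits the rate at which bile acids are made (probe set 10511375), read 20.8 and 22.6 in the wild type arrays and 1336 and 1439 in the MOER arrays. In wild type both arrays lay below the 40th percentile of the array, 53.576 to 60.98 over the 12 arrays, a level called dim here, so the ratio is a bound: Cyp7a1 was at least 24.8-fold higher in MOER (adjusted p = 1.13e-10). For such genes the dim arrays were raised to their own 40th percentile before the ratio was taken. H2-Ea, treated alike, was at least 47.1-fold higher (adjusted p = 3.95e-11).

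Raet1d, a ligand of the natural killer receptor NKG2D, read 115 and 122 in the wild type arrays and 2057 and 2164 in the MOER arrays, a log2 difference of 3.99 ± 0.084. Its family has near-identical members that may share probes, so the member is uncertain. The N-acetyltransferase gene Nat8f1 read 120.2 and 140.5 in the wild type arrays and 2166 and 1938 in the MOER arrays (3.82 ± 0.11), and the carbonic anhydrase gene Car3, one of the abundant proteins of liver cytosol, 642 and 646 in the wild type arrays and 6474 and 6512 in the MOER arrays (3.30 ± 0.11). In all 3 the MOER arrays were above the wild type arrays without overlap, which follows from choosing genes by their difference.

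Cyp2b10, a drug-metabolising cytochrome P450 induced through the nuclear receptor CAR, read 87.4 and 84.3 in the wild type arrays and 1189 and 1040.2 in the MOER arrays (3.47 ± 0.092, adjusted p = 1.74e-09). Cyp4f15, a fatty acid and leukotriene hydroxylase, read 145 and 182 in the wild type arrays and 1404 and 1360.4 in the MOER arrays (2.97 ± 0.11). Hsd3b2, a 3-beta-hydroxysteroid dehydrogenase, read 97.5 and 49.4 in the wild type arrays and 864 and 942 in the MOER arrays (3.41 ± 0.20). In Hsd3b2 the wild type arrays lay apart from each other, although the MOER arrays were still far above both. Cyp4a12a and Cyp4a12b, near-identical male-biased fatty acid hydroxylases whose signals cannot be separated with certainty, read 753 and 792 for the first and 571 and 576 for the second in MOER, at least 13.8-fold and 10.3-fold above dim wild type arrays.

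The metal-binding protein gene Mt1 read 865 and 846 in the wild type arrays and 8073 and 8066 in the MOER arrays (3.21 ± 0.092). Serpina6, which encodes the corticosteroid-binding globulin of plasma, read 465 and 417 in the wild type arrays and 3988 and 4087 in the MOER arrays (3.15 ± 0.094). Asic5, a bile acid-sensitive sodium channel, read 70.4 and 73.1 in the wild type arrays and 675 and 764 in the MOER arrays (3.06 ± 0.10). Their adjusted p ran from 2.75e-09 for Mt1 to 7.41e-09 for Asic5. The NADPH oxidase gene Nox4 read 709 and 712 in MOER, at least 12.7-fold above dim wild type arrays, and Ang6, of the angiogenin ribonuclease family, read 155 and 142 in the wild type arrays and 1364 and 1130.3 in the MOER arrays (2.94 ± 0.10).

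Among the genes lowest in MOER were a phosphate transporter, steroid-modifying enzymes and several genes that were dim in MOER. Slc34a2, a sodium-phosphate cotransporter (probe set 10521892), read 8669 and 8332 in the wild type arrays and 19.9 and 32.9 in the MOER arrays, at least 140.5-fold lower in MOER (adjusted p = 4.05e-10). Akr1c18, which inactivates progesterone, read 3629 and 3236 in the wild type arrays and 47.1 and 55.3 in the MOER arrays, at least 56.7-fold lower. Krt4, a keratin of stratified epithelia, read 3308 and 3210.1 in the wild type arrays and 20.4 and 16.5 in the MOER arrays, at least 53.9-fold lower. All 3 were bright in both wild type arrays and dim in both MOER arrays.

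Sult2a3, a hydroxysteroid sulfotransferase of a family whose members may share probes, read 11330.3 and 8975 in the wild type arrays and 132 and 144 in the MOER arrays (-6.04 ± 0.17, adjusted p = 2.53e-09). Sult3a2, another sulfotransferase with close relatives, read 3845 and 3394 in the wild type arrays and 181 and 266 in the MOER arrays (-3.94 ± 0.20). The peroxisomal enoyl-CoA isomerase gene Eci3 read 3383 and 3248 in the wild type arrays and 187 and 219.5 in the MOER arrays (-3.93 ± 0.25). A1bg, a plasma protein gene higher in female than in male mouse liver, read 2712 and 2762 in the wild type arrays and 115 and 148 in the MOER arrays (-4.23 ± 0.12). These genes remained detectable in MOER, at levels above the 40th percentile.

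Dntt, a DNA polymerase of lymphocyte precursors, read 2599 and 2617 in the wild type arrays and 60 and 62.5 in the MOER arrays (-5.09 ± 0.30). The exonuclease gene Trex2 read 2317 and 2310.2 in the wild type arrays and 61.8 and 56.8 in the MOER arrays (-4.95 ± 0.13) and the spindle checkpoint gene Mad2l1 5469.9 and 5148 in the wild type arrays and 155 and 182 in the MOER arrays (-4.85 ± 0.13). Ly6d, a surface protein gene, read 21658 and 21989.8 in the wild type arrays and 1010.3 and 944 in the MOER arrays (-4.46 ± 0.16). Lymphocyte markers did not move with Dntt: of 9 tested, 2 were called higher and 1 lower, and their sum was 1022 and 978 in wild type and 1018 and 942 in MOER.

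The remaining members of the lowest 15 were Myo15b, a myosin gene, with 1664 and 1638 in the wild type arrays and 63.4 and 65.1 in the MOER arrays (-4.38 ± 0.092), and Ptgds, a prostaglandin D synthase gene, with 1590.5 and 1575 in the wild type arrays and 71.7 and 87.1 in the MOER arrays (-4.07 ± 0.10). Pcp4l1 read 2046 and 2162 in wild type and was at least 34.8-fold lower in MOER. Corin, a protease that activates natriuretic peptides, read 1396 and 1391 in wild type and was at least 23-fold lower. The plot of the 15 highest and 15 lowest genes shows each array. In every row the 2 colours are apart, as the choice of these genes by their difference brings about.

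**Figure D2:**
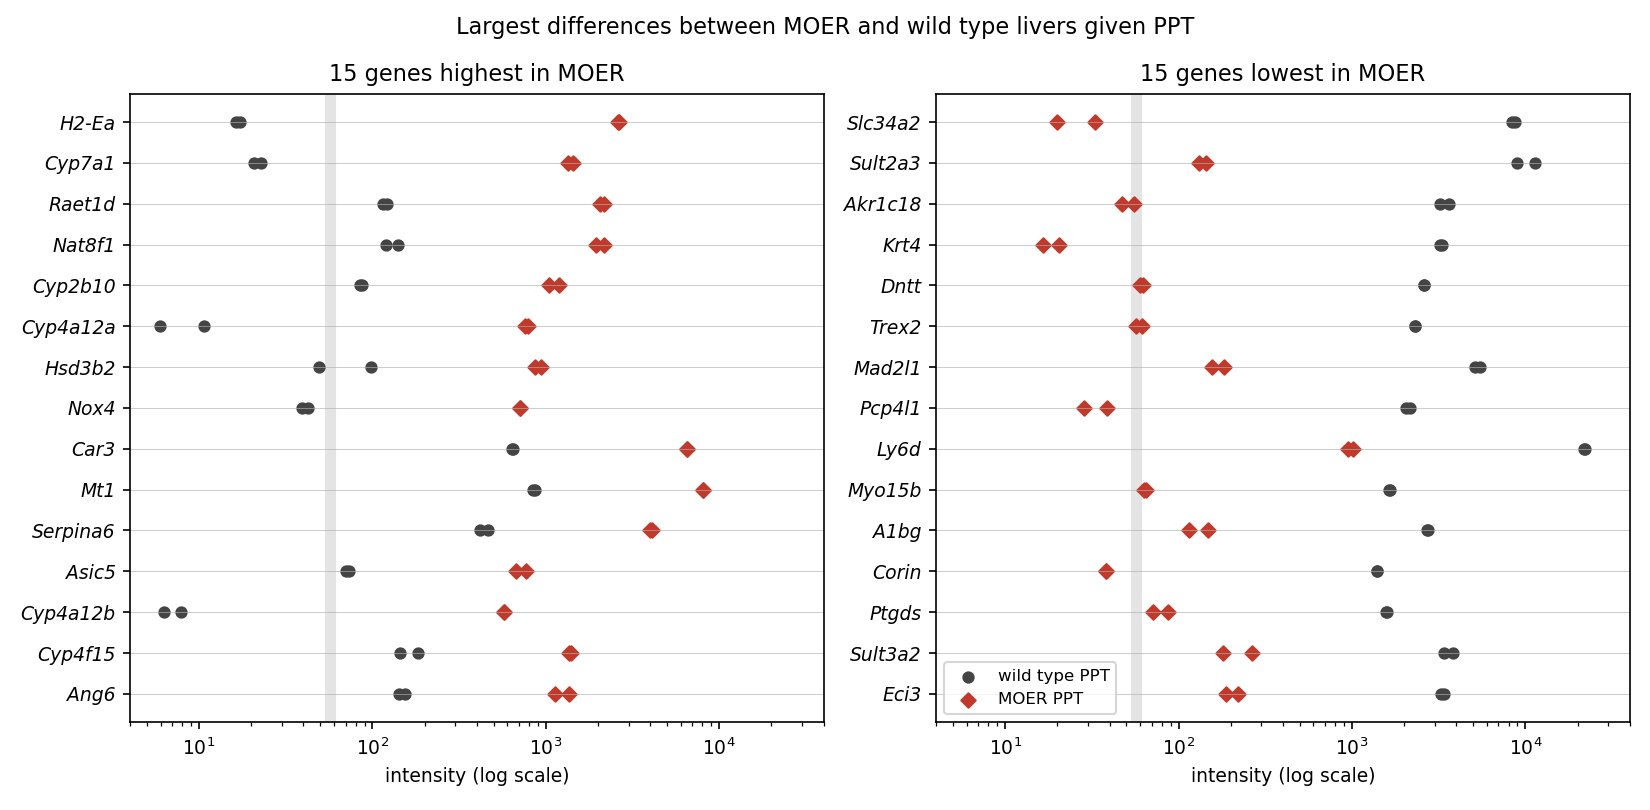
Intensity in each array (log scale) of the 15 genes highest and the 15 lowest in MOER, with wild type PPT arrays as grey circles and MOER PPT arrays as red diamonds; the grey band spans the 40th percentiles of these 4 arrays, 54.002 to 60.85. No row has overlapping groups, and in rows such as Cyp7a1 and Slc34a2 one group lies left of the band.

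Bile acid synthesis genes were more often higher than lower in MOER, and Cyp7a1 and Cyp8b1 lay far above wild type. Of 13 tested genes, 8 were higher in MOER and 3 lower, with a median log2 difference of 0.35 beside 0.035 for all genes. Cyp8b1, the sterol 12-alpha-hydroxylase that sets the share of cholic acid, read 16 and 16.8 in the wild type arrays and 273 and 256 in the MOER arrays, at least 4.73-fold higher in MOER (adjusted p = 7.37e-09). Slc27a5, the bile acyl-CoA synthetase, read 1641 and 1633 in the wild type arrays and 4068 and 4096 in the MOER arrays (1.31 ± 0.087). Cyp7b1, the oxysterol 7-alpha-hydroxylase of the alternative pathway, went the other way with 3681 and 3689 in the wild type arrays and 1058 and 1091 in the MOER arrays (-1.76 ± 0.098, adjusted p = 3.06e-07). The other 2 lower members, named after their values were seen, also act outside the Cyp7a1 step: Cyp27a1, the mitochondrial sterol 27-hydroxylase (-0.61), and Acox2, which shortens the side chain (-0.75).

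Transport genes were mixed, with 7 of 15 higher and 3 lower (median 0.37). The organic anion transporter gene Slco1a4 read 360.5 and 321 in the wild type arrays and 2371 and 2514 in the MOER arrays (2.79 ± 0.093), while its relative Slco1a1 read 456 and 434 in the wild type arrays and 53.5 and 78.2 in the MOER arrays (-2.51 ± 0.15). The canalicular pumps Abcc2, which exports conjugated anions, and Abcb4, which exports phospholipid into bile, read 1242 and 1246 in the wild type arrays and 2568 and 2742 in the MOER arrays for Abcc2 and 566 and 567 in the wild type arrays and 1137 and 1231 in the MOER arrays for Abcb4. Their differences were 1.08 ± 0.081 and 1.04 ± 0.089. The bile salt export pump gene Abcb11 (0.91) and the sterol exporter genes Abcg5 (0.74) and Abcg8 (0.83) were also higher, and the basolateral exporter Abcc3 (-1.22) and the uptake carrier Slco1b2 (-0.49) lower. These 5 were named after their values were seen.

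Among 19 tested regulators of lipid metabolism, 9 were higher in MOER and 4 lower (median 0.39). Nr0b2, the small heterodimer partner that represses Cyp7a1, read 1298 and 1339 in the wild type arrays and 286 and 229 in the MOER arrays (-2.29 ± 0.15, adjusted p = 1.17e-06). Insig1 and Insig2, which hold the sterol sensor complex in the endoplasmic reticulum, moved in opposite directions: Insig1 read 1449.9 and 1585 in the wild type arrays and 4446 and 4180.2 in the MOER arrays (1.498) and Insig2 18266 and 17203 in the wild type arrays and 4087 and 4217 in the MOER arrays (-2.09 ± 0.085). Pparg, a lipogenic nuclear receptor, read 509.6 and 536 in the wild type arrays and 145 and 144 in the MOER arrays (-1.75 ± 0.090), and Klb, the co-receptor of fibroblast growth factor 19 family hormones, was lower as well (-0.86, named after its value was seen). Srebf1, which encodes the lipogenic factor SREBP-1, read 146 and 152 in the wild type arrays and 269 and 231 in the MOER arrays (0.69 ± 0.12, adjusted p = 0.00109). Under PPT its MOER arrays lay above the wild type arrays, by less than 2-fold.

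Cholesterol synthesis genes were higher in MOER almost throughout the pathway. Of 17 tested of 22 listed, 14 were higher and 1 lower, with a median of 0.87. Nsdhl, which removes methyl groups from sterols, read 295 and 304 in the wild type arrays and 1184 and 1168 in the MOER arrays (1.92 ± 0.082, adjusted p = 4.08e-08). Dhcr7, the last enzyme before cholesterol, read 245 and 240.3 in the wild type arrays and 696 and 722 in the MOER arrays (1.49 ± 0.082), and squalene synthase, Fdft1, 604 and 596 in the wild type arrays and 1167 and 1232 in the MOER arrays (0.98 ± 0.087). Sc5d, the sterol C5-desaturase, read 2540.2 and 2577 in the wild type arrays and 4763 and 5120.0 in the MOER arrays (0.94 ± 0.090). The exception, named after its value was seen, was Hmgcs1, the cytosolic HMG-CoA synthase, with 4728 and 4584 in the wild type arrays and 2534 and 2699 in the MOER arrays (-0.83 ± 0.087, adjusted p = 3.25e-05). The synthase thus lay below wild type in both MOER arrays while the enzymes from mevalonate kinase (Mvk, 0.64, named after its value was seen) to Dhcr7 lay above it or, for Mvd (0.12) and Lss (0.18), were not called.

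Fatty acid synthesis was divided, with 10 of 18 genes higher in MOER and 5 lower (median 0.33). Acss2, which makes acetyl-CoA from acetate, read 192 and 209 in the wild type arrays and 1206 and 1203 in the MOER arrays (2.49 ± 0.086, adjusted p = 9.46e-09). The desaturase genes Scd1 and Fads1 read 2407 and 2236 in the wild type arrays and 6707 and 7074 in the MOER arrays for Scd1 and 418 and 432 in the wild type arrays and 1325 and 1277 in the MOER arrays for Fads1. Their differences were 1.56 ± 0.095 and 1.58 ± 0.087. Fasn, the fatty acid synthase, was lower with 337 and 367 in the wild type arrays and 235 and 222 in the MOER arrays (-0.59 ± 0.099, adjusted p = 8.86e-04), and Thrsp, a lipogenic nuclear protein, with 7299.5 and 7048 in the wild type arrays and 1829.9 and 1688 in the MOER arrays (-2.02 ± 0.097). The other lower members, named after their values were seen, were Me1, the malic enzyme (-1.03), the elongase Elovl2 (-0.65) and Gpam, the first acyltransferase of glycerolipid synthesis (-0.45).

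**Figure D3:**
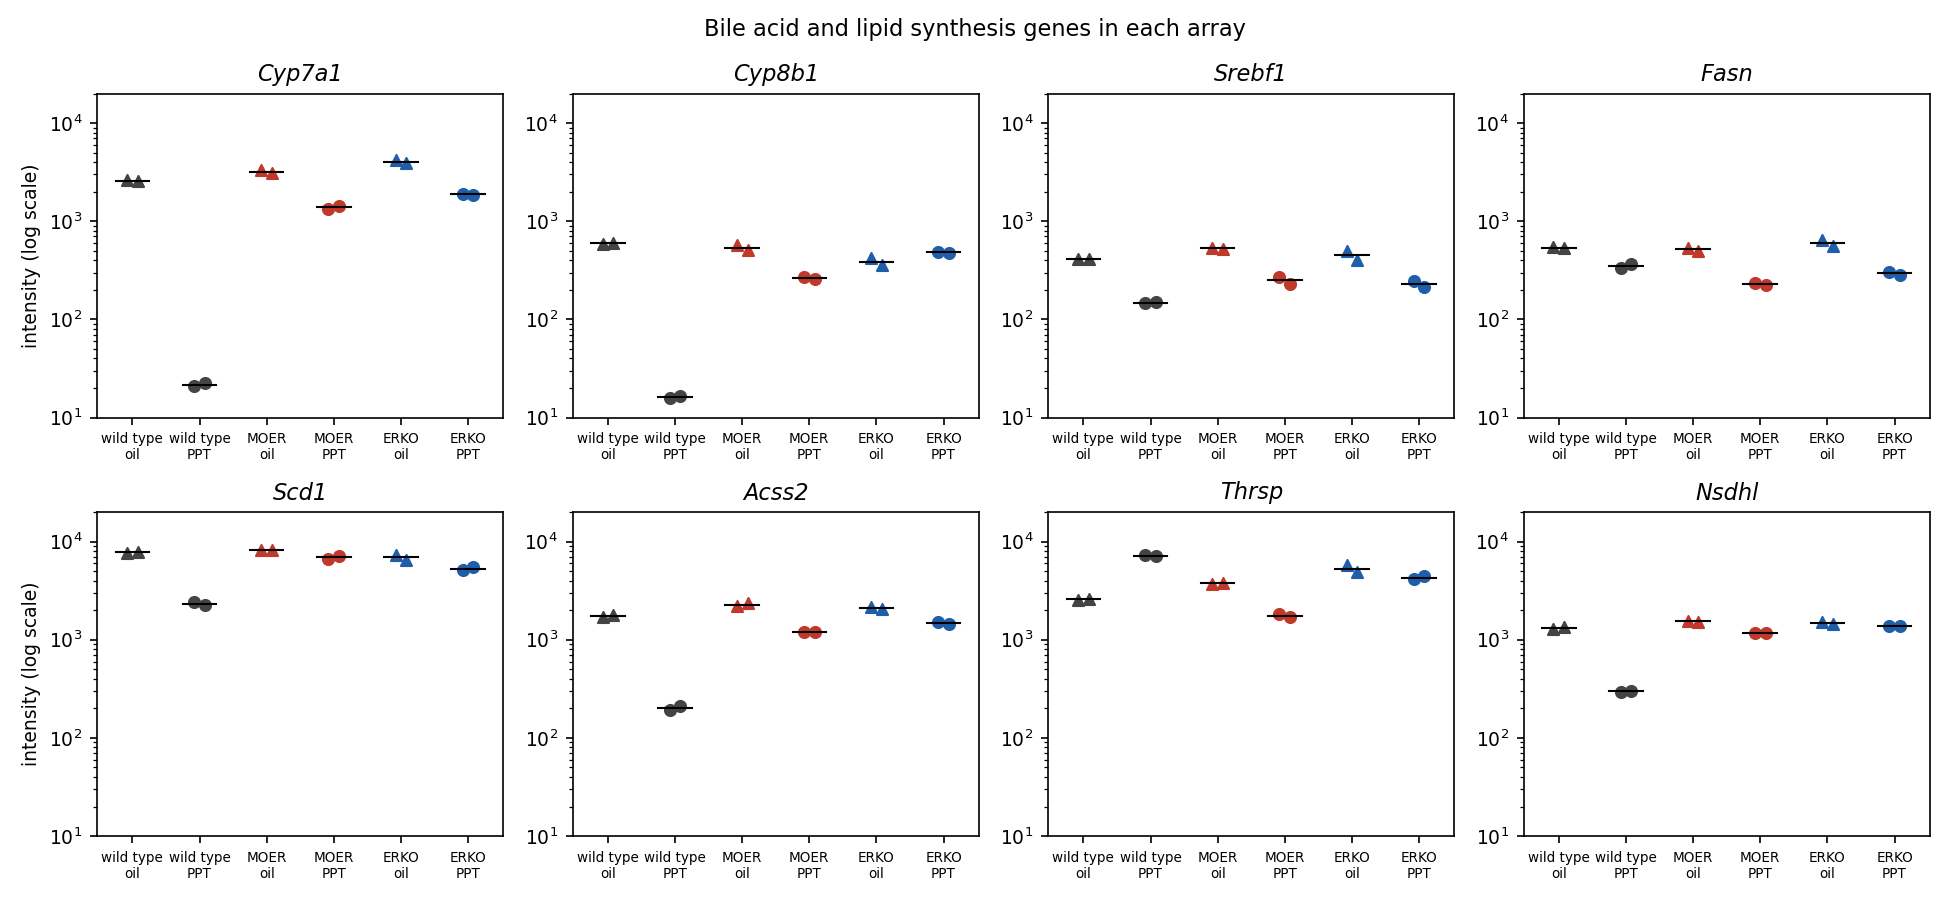
Intensity (log scale) of 8 genes of bile acid, sterol and fatty acid synthesis in each of the 12 arrays, with grey for wild type, red for MOER, blue for ERKO, triangles for oil, circles for PPT and a bar at each group mean. Cyp7a1 and Cyp8b1 lie at no more than 22.6 in wild type PPT arrays and at 256 to 1439 in MOER PPT arrays, and Fasn and Thrsp are the panels in which MOER PPT lies below wild type PPT.

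The plot of 8 lipid genes in all 12 arrays shows where the oil groups lay. For Cyp7a1, Cyp8b1, Acss2 and Nsdhl the wild type PPT arrays were the low group and the MOER PPT arrays were nearer to both oil groups, whose values were 2623 and 2554 in wild type and 3287 and 3123 in MOER for Cyp7a1. For Thrsp the wild type PPT arrays were the high group.

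Genes of triglyceride synthesis and lipid droplets did not lean to one side, with 6 of 18 higher and 7 lower (median 0.025). Cidec, a protein that fuses lipid droplets, read 519 and 461 in the wild type arrays and 27.9 and 24.1 in the MOER arrays, at least 8.1-fold lower in MOER (adjusted p = 2.47e-08). The monoglyceride lipase Mgll read 1154 and 1187 in the wild type arrays and 269.7 and 278 in the MOER arrays (-2.03 ± 0.13), and Dgat2, the last acyltransferase of triglyceride synthesis, 3597 and 3687 in the wild type arrays and 1445 and 1429.6 in the MOER arrays (-1.33 ± 0.099). Lpin1, a phosphatidate phosphatase, was higher with 54 and 62.9 in the wild type arrays and 219 and 240.3 in the MOER arrays (1.72 ± 0.12).

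Fatty acid oxidation and targets of the fasting receptor PPAR-alpha were likewise split, 7 of 22 higher and 6 lower (median 0.086). Without wild type PPT replicate 1 the number higher was 4. The peroxisomal bifunctional enzyme Ehhadh read 10701 and 9702 in the wild type arrays and 1030.5 and 1018 in the MOER arrays (-3.29 ± 0.093, adjusted p = 2.53e-09) and stood far from the rest of its list. The omega-hydroxylase Cyp4a10 read 2484 and 2356 in the wild type arrays and 1277 and 1295 in the MOER arrays (-0.90 ± 0.085), and Vnn1, a pantetheinase, 1442 and 1461 in the wild type arrays and 792 and 810.1 in the MOER arrays (-0.84 ± 0.092). Acot3, a peroxisomal thioesterase, read 60.4 and 82.6 in MOER, at least 1.28-fold above dim wild type arrays. The mitochondrial steps Acadvl (0.29), Acadl (0.33) and Cpt1a (0.32) were called higher, by less than 2-fold (named after their values were seen).

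Genes known to respond to oestrogens in various tissues were mostly lower in MOER where they were called, 7 of 15 lower and 3 higher (median 0.00). Esr1 itself is a member. Lifr, the receptor of leukaemia inhibitory factor, read 11507 and 11361 in the wild type arrays and 1305 and 1436 in the MOER arrays (-3.05 ± 0.083, adjusted p = 2.06e-09). Apoa4, an apolipoprotein gene, read 8834 and 8347 in the wild type arrays and 1317 and 1241 in the MOER arrays (-2.73 ± 0.10). The growth regulator genes Myc and Ccnd1 read 226 and 247 in the wild type arrays and 41.2 and 40.8 in the MOER arrays for Myc, at least 3.91-fold lower, and 683 and 644 in the wild type arrays and 247 and 270.5 in the MOER arrays for Ccnd1 (-1.31 ± 0.090). The 3 higher members, named after their values were seen, were Ctsd, a lysosomal protease (0.80), Igf1 (0.37) and Agt, the precursor of angiotensin (0.33). Without wild type PPT replicate 2 the number higher was 1.

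Growth hormone acts on liver through the kinase JAK2 and the factors STAT5A and STAT5B, and its pulse pattern sets much of the sex difference of liver genes. Of 16 genes of this pathway 9 were higher in MOER and 5 lower (median 0.37). Socs2, a feedback inhibitor induced by STAT5, read 643 and 681 in the wild type arrays and 85.7 and 107 in the MOER arrays (-2.60 ± 0.12, adjusted p = 8.42e-08), and Stat5a 482 and 465 in the wild type arrays and 128 and 141 in the MOER arrays (-1.71 ± 0.12). Stat5b was lower by less (-0.61, named after its value was seen). Cish, another STAT5-induced inhibitor, read 119 and 123 in wild type and 29.4 and 25.8 in MOER, at least 2-fold lower (named after its value was seen). Bcl6, a repressor of STAT5 target genes, was higher with 106 and 99.3 in the wild type arrays and 248 and 261 in the MOER arrays (1.19 ± 0.087). Igfbp1, which binds insulin-like growth factors, read 1194 and 1159.7 in the wild type arrays and 249.6 and 254 in the MOER arrays (-2.16 ± 0.13).

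Sex-biased genes did not move as blocks. Of 17 tested male-biased genes 8 were higher in MOER and 4 lower (median 0.20), and of 19 female-biased genes 8 were higher and 8 lower (median 0.15). C6, a complement component higher in males, read 256 and 233 in the wild type arrays and 787 and 876 in the MOER arrays (1.70 ± 0.097). On the female-biased side Atp6v0d2, a proton pump subunit, read 250.5 and 257 in MOER, at least 4.54-fold above dim wild type arrays. Cyp17a1, a steroid 17-alpha-hydroxylase, was lower with 10535 and 9707 in the wild type arrays and 2449.9 and 2552 in the MOER arrays (-2.01 ± 0.095, adjusted p = 9.30e-08). Male-biased Cyp4a12a lay above wild type while male-biased Cyp7b1 and Slco1a1 lay below it, and female-biased Cyp2b10 lay above while A1bg lay below.

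Drug-metabolising P450s and their partners were higher in MOER, 12 of 15 tested with 0 lower and a median of 1.29. Cyp1a2, the caffeine-oxidising enzyme of pericentral hepatocytes, read 581 and 574 in the wild type arrays and 1650.3 and 1811 in the MOER arrays (1.56 ± 0.091, adjusted p = 4.46e-07). Cyp3a13 read 1187 and 1200.0 in the wild type arrays and 3427 and 3729 in the MOER arrays (1.57 ± 0.092), and Cyp2c37 3254 and 2743 in the wild type arrays and 7497 and 8563 in the MOER arrays (1.42 ± 0.11). With Cyp2b10 these had the smallest p, and 9 of the 12 were at least 2-fold higher. Members of the Cyp2b and Cyp2c families share sequence, so their separate values are uncertain.

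Glutathione S-transferases, which conjugate electrophiles, were higher as well, 11 of 17 with 2 lower and a median of 0.68. The mu class members Gstm7, Gstm3, Gstm6 and Gstm1, close relatives that may share probes, gave the smallest p. Gstm7 read 460.0 and 462 in the wild type arrays and 1263 and 1257 in the MOER arrays (1.42 ± 0.088) and Gstm1 1426 and 1343 in the wild type arrays and 2529 and 2581 in the MOER arrays (0.88 ± 0.093), and the differences of Gstm3 and Gstm6 were 1.16 and 1.52. Gstp1 (-0.88) and Gstt3 (-0.63), named after their values were seen, were the lower members.

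Enzymes that convert steroids lay on both sides, with 8 of 19 higher and 4 lower (median 0.068). Hsd17b6, which oxidises androgen metabolites, read 1053 and 1024 in the wild type arrays and 3855 and 4202 in the MOER arrays (1.94 ± 0.089). Sult1e1, the oestrogen sulfotransferase, read 244 and 218 in the wild type arrays and 1089.7 and 1336 in the MOER arrays (2.31 ± 0.12, adjusted p = 2.02e-07). Hsd17b2, which oxidises oestradiol to oestrone, was lower (-0.999), as was the glucuronosyltransferase Ugt2b5 (-0.40). These last 2 were named after their values were seen.

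Chaperones of the endoplasmic reticulum were lower in MOER. This compartment folds secreted proteins, and its chaperone genes are known to be induced together when unfolded proteins build up, through the factors ATF6 and XBP1 acting at a promoter sequence named the endoplasmic reticulum stress element. Of 21 tested genes 18 were lower and 0 higher, with a median of -0.62. Manf, a secreted chaperone-like protein, read 3944 and 3964 in the wild type arrays and 1106 and 1154 in the MOER arrays (-1.79 ± 0.090, adjusted p = 1.36e-07). Creld2 read 1622 and 1683 in the wild type arrays and 439.9 and 388 in the MOER arrays (-1.96 ± 0.12). Dnajb9, a co-chaperone of BiP, read 3227 and 3209 in the wild type arrays and 586 and 799.6 in the MOER arrays (-2.21 ± 0.13), and Syvn1, the ubiquitin ligase that disposes of misfolded proteins, 577 and 634 in the wild type arrays and 177 and 197 in the MOER arrays (-1.61 ± 0.099). In each the wild type arrays lay above the MOER arrays without overlap, as the choice of members by smallest p brings about. Hspa5, the gene of BiP itself, read 9712 and 9527 in the wild type arrays and 5159.5 and 5221 in the MOER arrays (-0.89 ± 0.085) and Dnajc3, a BiP co-chaperone, 6053 and 5970.4 in the wild type arrays and 3675 and 4026 in the MOER arrays (-0.64 ± 0.087). Both were taken up here because their promoters are printed next.

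The stress element was searched for as CCAAT and CCACG with any 9 bases between them, on both strands of the 250 bases before the start site, in the RefSeq promoters of build GRCm38.p6. It was present in 8 of 19 chaperone genes with a promoter in that table (42.1%) and in 0.113% of 32851 promoters of all genes. The 8 were Calr, Canx, Creld2, Dnajc3, Hsp90b1, Hspa5, Pdia6 and Syvn1, of which 7 were called lower in MOER and Canx was not called (-0.13). The following 4 are the holders with the smallest p, printed to show the element (capitals) in its promoter.
Creld2 promoter, chr15:88819396-88819645, plus strand: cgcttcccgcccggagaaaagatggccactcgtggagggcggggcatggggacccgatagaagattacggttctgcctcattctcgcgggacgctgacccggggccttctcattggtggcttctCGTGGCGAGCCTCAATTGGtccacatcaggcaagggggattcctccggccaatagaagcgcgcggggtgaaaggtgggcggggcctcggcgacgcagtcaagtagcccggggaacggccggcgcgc
Syvn1 promoter, chr19:6046326-6046575, plus strand: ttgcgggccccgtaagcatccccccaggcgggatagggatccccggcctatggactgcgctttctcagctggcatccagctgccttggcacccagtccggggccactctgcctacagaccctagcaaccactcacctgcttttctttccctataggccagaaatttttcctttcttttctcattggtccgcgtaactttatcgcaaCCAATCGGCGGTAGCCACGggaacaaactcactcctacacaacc
Hspa5 promoter, chr2:34771840-34772089, plus strand: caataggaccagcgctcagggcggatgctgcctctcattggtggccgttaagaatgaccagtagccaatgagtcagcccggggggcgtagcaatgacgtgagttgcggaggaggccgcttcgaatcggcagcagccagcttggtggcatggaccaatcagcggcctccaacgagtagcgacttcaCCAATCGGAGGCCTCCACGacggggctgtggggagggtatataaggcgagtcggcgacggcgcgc
Dnajc3 promoter, chr14:118937682-118937931, plus strand: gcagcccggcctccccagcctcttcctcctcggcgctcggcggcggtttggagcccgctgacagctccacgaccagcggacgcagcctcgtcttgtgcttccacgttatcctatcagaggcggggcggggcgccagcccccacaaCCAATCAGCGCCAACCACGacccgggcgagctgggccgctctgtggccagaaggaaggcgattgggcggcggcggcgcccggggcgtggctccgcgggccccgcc
In Creld2 the element lies in reverse orientation and begins 126 bases before the start site. In Syvn1, Hspa5 and Dnajc3 it reads forward and begins 44, 65 and 105 bases before it. A match describes the sequence and does not show that the element was in use.

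The palindromic oestrogen response element, GGTCA and TGACC with any 3 bases between them, was not found on either strand in the 250-base promoters of 9 of the 15 highest and 13 of the 15 lowest genes that the table holds, and it occurred in 0.0639% of all promoters. Its 6-base arm AGGTCA was found in 0 of the 9 and in 2 of the 13 (A1bg and Mad2l1, 15.4%) against 14% of all promoters, and the first motif contains this arm's last 5 bases. The sterol regulatory element, searched for in 1 fixed form, was in 0 of 17 promoters of 14 cholesterol synthesis genes and in 0.0731% of all promoters. The absence of these letters in such windows says nothing about binding elsewhere.

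Genes that move and modify secretory proteins were lower in MOER as well. Of 28 genes of translocation, glycosylation and export 22 were lower in MOER and 1 higher, with a median of -0.48. Sec23b, of the vesicle coat that leaves the endoplasmic reticulum, read 1179 and 1178 in the wild type arrays and 487 and 501 in the MOER arrays (-1.23 ± 0.085, adjusted p = 1.49e-06). Ssr2 and Ssr3, subunits of the translocon-associated complex, read 3391 and 3269 in the wild type arrays and 1521 and 1480.4 in the MOER arrays for Ssr2 and 6761 and 6557 in the wild type arrays and 3519.9 and 3844 in the MOER arrays for Ssr3. Their differences were -1.14 ± 0.081 and -0.85 ± 0.086. Ostc, of the oligosaccharyltransferase, read 3492 and 3657 in the wild type arrays and 1693 and 1827 in the MOER arrays (-1.02 ± 0.093). The higher member was Rpn2 (0.27, named after its value was seen), which was not called when any 1 of the 4 arrays was left out.

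Targets of ATF4, the factor of amino acid stress, were less uniform, 8 of 20 lower and 3 higher (median -0.11). Atf3 read 127 and 155 in the wild type arrays and 32.4 and 42.1 in the MOER arrays, at least 2.33-fold lower. Ddit4, an inhibitor of the growth kinase mTOR, read 259 and 271 in the wild type arrays and 114 and 92.5 in the MOER arrays (-1.24 ± 0.12) and Trib3, a pseudokinase, 424 and 430.1 in the wild type arrays and 197 and 231 in the MOER arrays (-0.95 ± 0.14). Shmt2, a mitochondrial enzyme of serine metabolism, was higher with 363 and 339 in the wild type arrays and 707 and 644 in the MOER arrays (0.92 ± 0.13), as were Vldlr (0.95) and Eif4ebp1 (0.48), named after their values were seen.

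Cell cycle genes were lower in MOER where they were called, 14 of 23 with 0 higher and a median of -0.59. Mcm3, part of the helicase that unwinds DNA for replication, read 195 and 179 in the wild type arrays and 58.9 and 57.9 in the MOER arrays, at least 3.09-fold lower. Mcm5 of the same complex read 227 and 204 in the wild type arrays and 67.7 and 73.1 in the MOER arrays (-1.42 ± 0.13), and cyclin A2, Ccna2, 242 and 244 in the wild type arrays and 105 and 120.3 in the MOER arrays (-1.01 ± 0.10). Ccnd1, given above, is also on this list.

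Acute phase, coagulation and complement genes, 3 lists that mostly hold plasma proteins that liver secretes, were more often higher than lower in MOER. The first 2 lists share Fga, Fgb and Fgg. Mt1, Mt2 and Steap4, on the acute phase list, do not encode secreted plasma proteins. Of 26 acute phase genes 21 were higher and 1 lower (median 0.94). Mt2, a metallothionein beside Mt1, read 2602 and 2619 in the wild type arrays and 13178 and 13327 in the MOER arrays (2.34 ± 0.12). Steap4, a metalloreductase, read 584 and 594 in the wild type arrays and 3224 and 3466 in the MOER arrays (2.47 ± 0.082, adjusted p = 7.41e-09). Fga, the fibrinogen alpha chain, read 2618 and 2451 in the wild type arrays and 7086 and 7687 in the MOER arrays (1.54 ± 0.099). The lower member, Crp (-0.31, named after its value was seen), was not called without wild type PPT replicate 1, wild type PPT replicate 2 or MOER PPT replicate 1.

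Of 21 coagulation and fibrinolysis genes 16 were higher and 1 lower (median 0.80). Factor V, F5, read 460.5 and 497 in the wild type arrays and 1320.3 and 1342 in the MOER arrays (1.45 ± 0.084, adjusted p = 4.05e-07) and plasminogen, Plg, 3107 and 3089 in the wild type arrays and 7401 and 7977 in the MOER arrays (1.31 ± 0.086). F11, factor XI, was the lower one with 1716 and 1753 in the wild type arrays and 626 and 651 in the MOER arrays (-1.42 ± 0.10). The complement list had 15 of 22 higher and 0 lower (median 0.80). C9, of the membrane attack complex, read 2132 and 1921 in the wild type arrays and 6059.6 and 6777 in the MOER arrays (1.66 ± 0.095). Mbl1, a mannose-binding lectin, read 1048 and 990.0 in the wild type arrays and 3088 and 3083 in the MOER arrays (1.58 ± 0.093), and the protease gene C1s1 974 and 957 in the wild type arrays and 2503 and 2695 in the MOER arrays (1.41 ± 0.084). Hepatocyte markers, which share Ahsg and Fgb with the coagulation list, were also higher or not called. Their sum over 11 genes was 109063 and 102162 in wild type and 138676 and 142845 in MOER, 6 were called higher and 0 lower, and 0 of them were at 0 in any of the 4 arrays. The part of hepatocyte content in the higher genes of these lists was not tested. In whole tissue, more cells of a type and more RNA per cell cannot be told apart.

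Interferon-induced genes were higher in MOER, 16 of 21 with 2 lower and a median of 0.62. Without wild type PPT replicate 1 the number higher was 9. Ifit1, which binds viral RNA, read 180.1 and 178 in the wild type arrays and 591 and 659 in the MOER arrays (1.71 ± 0.094, adjusted p = 2.68e-07), and the antiviral GTPase gene Mx2 129 and 142 in MOER, at least 2.42-fold above dim wild type arrays. Irgm1, an immunity-related GTPase, read 703 and 703 in the wild type arrays and 1417 and 1376 in the MOER arrays (0.97 ± 0.083), and Stat2, a factor that carries the interferon signal, 181 and 181 in the wild type arrays and 329.8 and 357 in the MOER arrays (0.87 ± 0.085). The lower members, named after their values were seen, were Bst2 (-0.49) and Cxcl10 (-0.41). Their number was 0 without wild type PPT replicate 2 and 1 without either MOER array.

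Chemokines and cytokine receptors were mixed, 8 of 19 higher and 6 lower (median 0.29). Cxcl1, which attracts neutrophils, read 375 and 376 in the wild type arrays and 1901 and 1864 in the MOER arrays (2.28 ± 0.11, adjusted p = 1.12e-07). The receptor chains of interleukin 6, Il6st and Il6ra, read 560.1 and 555 in the wild type arrays and 1311 and 1343 in the MOER arrays for Il6st and 168 and 147 in the wild type arrays and 312 and 305 in the MOER arrays for Il6ra. Their differences were 1.23 ± 0.091 and 0.91 ± 0.093. The shared signalling chain Il6st was higher in MOER while its partner Lifr, given above, was lower. Neutrophil markers summed to 4345 and 4247 in wild type and 1422 and 1374 in MOER. In wild type that sum was for the most part Prtn3, so it does not stand for the list. The part of neutrophil markers in the Cxcl1 difference was not tested. Of 10 tested, S100a8 (0.79), S100a9 (0.82), Ly6g (0.49) and Ltf, dim in both genotypes, were called higher, and Prtn3 and Elane lower (Ly6g and Elane named after their values were seen). Prtn3, a protease of myeloid precursors, read 3634 and 3575 in the wild type arrays and 356 and 301 in the MOER arrays (-3.40 ± 0.20). The number higher was 2 without wild type PPT replicate 2 or without MOER PPT replicate 2, and the number lower was 1 without any 1 of the 4 arrays.

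Genes of glucose production were more often higher than lower in MOER, 10 of 17 against 3 (median 0.32). The catalytic subunit of glucose-6-phosphatase, G6pc, read 844 and 869.7 in the wild type arrays and 2696 and 2649.8 in the MOER arrays (1.62 ± 0.078, adjusted p = 1.06e-07). The transaminase gene Got1 read 797 and 781 in the wild type arrays and 2569.8 and 2485 in the MOER arrays (1.66 ± 0.087). Ppargc1a, a coactivator induced in fasting, read 157 and 181 in MOER, at least 3.02-fold above dim wild type arrays. Pck1, phosphoenolpyruvate carboxykinase, was not called (0.11). The lower members beside Igfbp1, named after their values were seen, were Irs1, an insulin receptor substrate (-0.82), and the factor Creb3l3 (-0.72).

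Oxidative phosphorylation genes differed little, with 3 of 26 higher, 1 lower and a median of 0.03, which is that of all genes to within 0.01. Cytochrome c, Cycs, read 5681 and 5249 in the wild type arrays and 3398 and 3242 in the MOER arrays (-0.72 ± 0.097) and Sdha, of succinate dehydrogenase, 2202 and 2225 in the wild type arrays and 3036 and 3156 in the MOER arrays (0.48 ± 0.087). Sdhb (0.31) and Cox4i1 (0.33) were the other higher members, and the number higher was 1 without wild type PPT replicate 1 or without MOER PPT replicate 1.

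**Figure D4:**
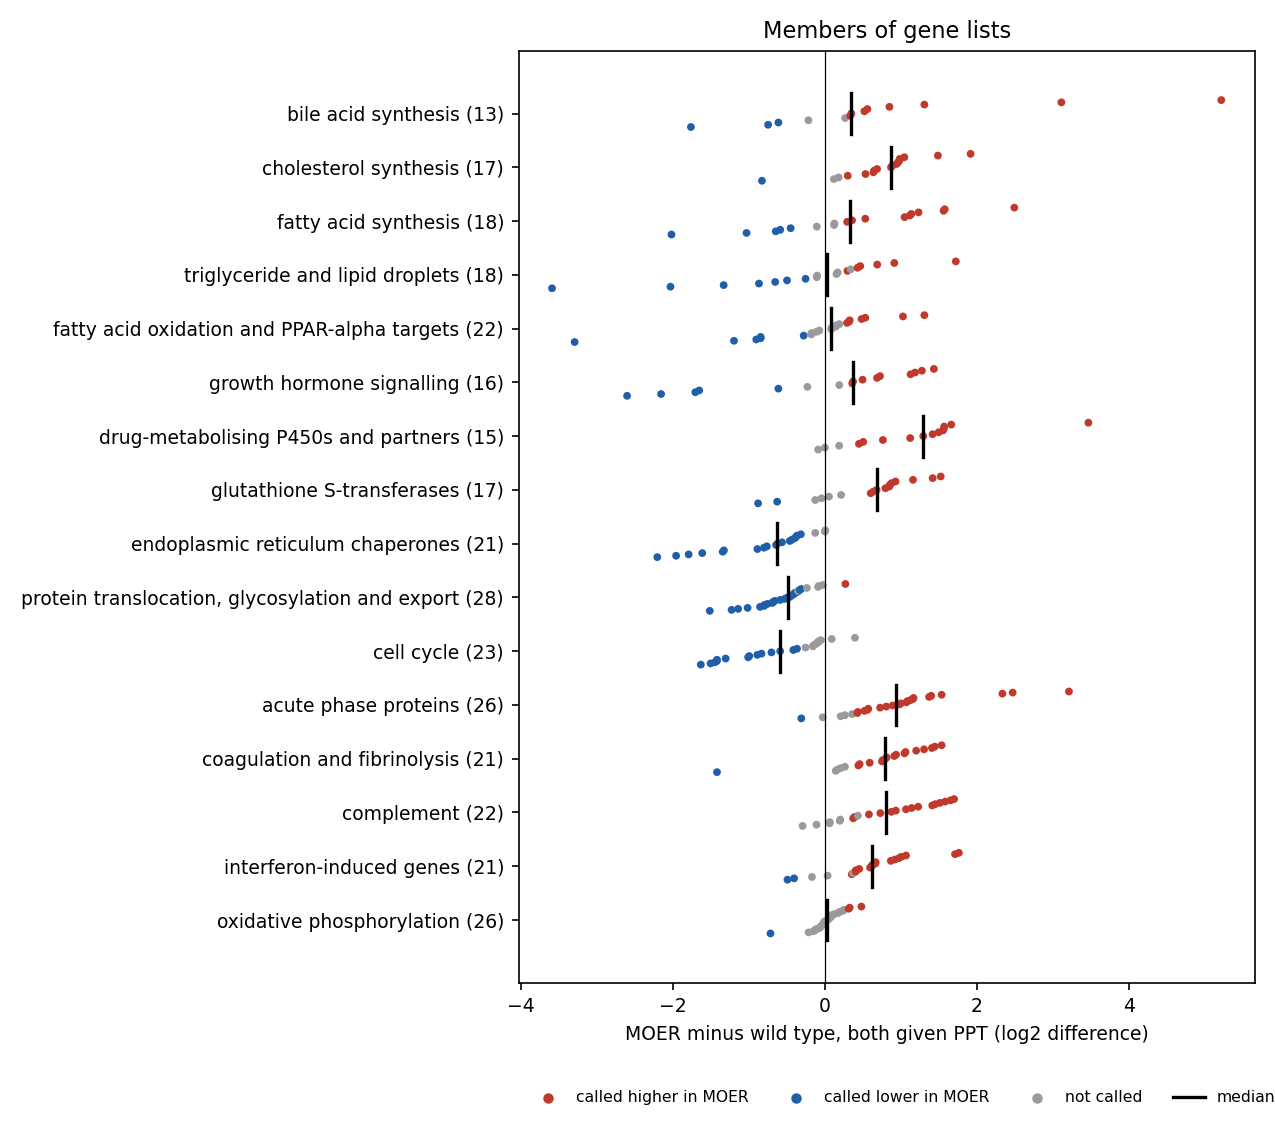
Log2 difference, MOER minus wild type under PPT, of each tested member of 16 gene lists (number tested in brackets), red where called higher, blue where called lower and grey where not called, with a black bar at the list median. Endoplasmic reticulum chaperones, translocation genes and cell cycle genes lie left of 0 and acute phase, coagulation and complement genes right of it, while oxidative phosphorylation genes gather at 0.

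The plot of list members shows the spread within each list beside its median. Bile acid synthesis and fatty acid synthesis have members far on both sides, whereas the chaperone and translocation lists have hardly any member to the right of 0. Fitted differences into or out of dim arrays, such as those of Cyp7a1 and Cidec, depend on the constant 16 added before the logarithm, and their place on the axis is not a measured size.

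Markers of the liver's zones were higher in MOER in both zones. Of 14 markers of hepatocytes near the central vein 11 were higher and 2 lower (median 0.73), and of 10 markers of those near the portal vein 7 were higher and 2 lower (median 0.55). The glutamate transporter gene Slc1a2 read 369 and 372 in the wild type arrays and 1789 and 1786 in the MOER arrays (2.22 ± 0.087) and glutamine synthetase, Glul, 1408 and 1336 in the wild type arrays and 4728 and 5173 in the MOER arrays (1.84 ± 0.12). Gulo, which makes vitamin C in mice, read 847 and 797 in the wild type arrays and 2703 and 2664 in the MOER arrays (1.69 ± 0.097). On the portal side Cps1, the entry enzyme of the urea cycle, read 1936 and 1987 in the wild type arrays and 8674 and 9656 in the MOER arrays (2.21 ± 0.091, adjusted p = 3.11e-08). Aldh1b1, an aldehyde dehydrogenase, read 96.1 and 98.3 in the wild type arrays and 341 and 382 in the MOER arrays (1.74 ± 0.12) and Hal, which degrades histidine, 1605 and 1543 in the wild type arrays and 3523 and 3649 in the MOER arrays (1.18 ± 0.082). Cdh1, E-cadherin, was lower with 329.8 and 347 in the wild type arrays and 70 and 90.5 in the MOER arrays (-1.89 ± 0.12). The other lower markers were Cyp27a1 and Lect2 (-0.35) near the central vein and Arg1 (-0.40) near the portal vein, the last 2 named after their values were seen. The number lower was 1 near the central vein without wild type PPT replicate 1, wild type PPT replicate 2 or MOER PPT replicate 1, and 1 near the portal vein without the first or the last of these.

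Among hepatocyte markers Hpd, of tyrosine breakdown, read 5887 and 5616 in the wild type arrays and 10429.9 and 11187 in the MOER arrays (0.91 ± 0.10) and Ambp, a plasma protein precursor, 7675 and 7439 in the wild type arrays and 12967 and 13511 in the MOER arrays (0.81 ± 0.11). Ahsg, fetuin A, differed by 0.76 ± 0.13 and Apoa1, the main protein of high density lipoprotein, by 0.73 ± 0.12. The markers therefore did not move as 1 block with albumin, whose difference was 0.00.

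Stellate cell and fibroblast markers were higher in MOER or not called, 8 of 14 higher and 0 lower (median 0.46), and their sum was 7334 and 7319 in wild type and 9960.0 and 10539 in MOER. Lrat, which stores retinol as esters, read 85.2 and 103 in the wild type arrays and 246 and 263 in the MOER arrays (1.30 ± 0.10). Reln read 128 and 147 in the wild type arrays and 304 and 329 in the MOER arrays (1.12 ± 0.11). The contractile genes Acta2 and Rgs5 read 95.2 and 112 in the wild type arrays and 288 and 293 in the MOER arrays for Acta2 and 419 and 416 in the wild type arrays and 697 and 805 in the MOER arrays for Rgs5. Their differences were 1.36 ± 0.15 and 0.82 ± 0.093. Fibrillar collagen genes Col1a1 (0.27), Col1a2 (0.17) and Col3a1 (0.079) were not called.

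Endothelial markers split, 5 of 14 higher and 4 lower, although their sum was 5267 and 5189 in wild type and 7628 and 7915 in MOER. The sinusoidal genes Clec4g and Fcgr2b read 1597 and 1574 in the wild type arrays and 3891 and 4164 in the MOER arrays for Clec4g and 578 and 558 in the wild type arrays and 1094 and 1039 in the MOER arrays for Fcgr2b. Their differences were 1.34 ± 0.091 and 0.89 ± 0.081. Emcn, endomucin, was lower with 378 and 380.5 in the wild type arrays and 112 and 110.4 in the MOER arrays (-1.64 ± 0.17), as were Lyve1 (-0.90), Pecam1 (-0.38) and Stab2 (-0.29), and Oit3 (0.43), Eng (0.44) and Tek (0.36) were higher. Apart from Emcn and Oit3 these were named after their values were seen. The number higher was 2 without wild type PPT replicate 1 or MOER PPT replicate 2 and 3 without wild type PPT replicate 2, and the number lower was 1 without either wild type array and 2 without either MOER array.

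Macrophage and Kupffer cell markers were also split, 5 of 16 higher and 4 lower (median 0.14), with a sum of 17488 and 17311 in wild type and 19922 and 19820.0 in MOER. Mpeg1, a pore-forming protein of macrophages, read 819.5 and 858 in the wild type arrays and 2087 and 2262 in the MOER arrays (1.36 ± 0.086), and the Kupffer cell lectin Clec4f 1001 and 1003 in the wild type arrays and 1559.8 and 1420.5 in the MOER arrays (0.56 ± 0.088). The scavenger receptor genes Marco and Cd163 read 969 and 987 in the wild type arrays and 335 and 357 in the MOER arrays for Marco and 283 and 289 in the wild type arrays and 98.1 and 116 in the MOER arrays for Cd163. Their differences were -1.46 ± 0.16 and -1.30 ± 0.10. Timd4 (397 and 416 in wild type, 178 and 214 in MOER) and Msr1 (-0.51) were lower too, and Csf1r (0.52), C1qc (0.37) and Vsig4 (0.34) higher, all 5 named after their values were seen. The number higher was 2 without wild type PPT replicate 2 and 3 without MOER PPT replicate 1.

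Other cell types gave few calls. Red blood cell precursor genes had 2 of 5 higher, Car1 (0.79) and Alas2 (0.69), and 1 lower, the transferrin receptor Tfrc. Adipocyte markers had Car3 and Retn higher and Cidec and Fabp4 (-1.60) lower of 6. Retn was dim in both genotypes and its call was lost when any 1 array was left out, which left 1 higher. Fabp4, which carries fatty acids, read 951 and 949.9 in the wild type arrays and 282 and 325 in the MOER arrays. The list summed to 2234 and 2165 in wild type and 6938 and 7018 in MOER, most of it Car3 in MOER, a gene that hepatocytes also express.

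Among lymphocyte markers Cd8a and Cd8b1 (0.32) were called higher and the granzyme gene Gzma at least 1.24-fold lower, and the number higher was 0 without wild type PPT replicate 1, wild type PPT replicate 2 or MOER PPT replicate 1. The bile duct list had Krt19 higher (0.46) of 4, a call lost without any 1 of the 4 arrays. Of 13 acinar genes Cela2a was lower (-0.91 ± 0.16) and the rest were not called. Of 14 muscle genes Tnnt3 was higher (0.46 ± 0.12), which was not called without wild type PPT replicate 2 or MOER PPT replicate 1. Of 10 genes of squamous and airway epithelium Krt4 alone was called, and of 6 mesothelial genes Krt8, a keratin that hepatocytes also express, was higher (0.86 ± 0.097).

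**Figure D5:**
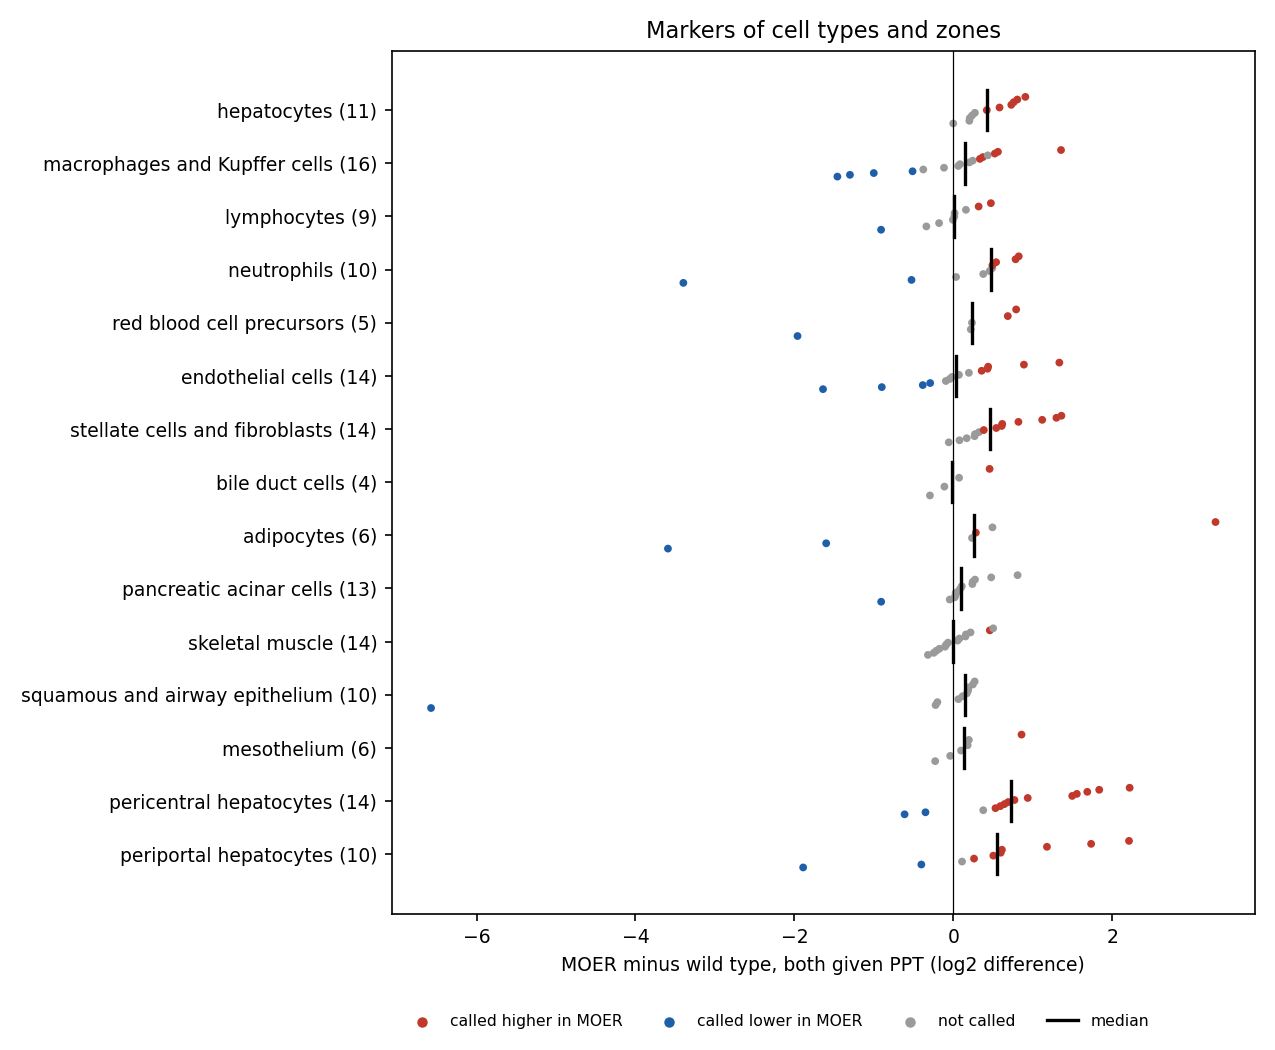
Log2 difference, MOER minus wild type under PPT, of each tested marker of 15 cell types or liver zones (number tested in brackets), coloured as called higher (red), called lower (blue) or not called (grey), with a black bar at each median. Zone markers lie mostly right of 0, muscle and acinar markers gather around 0, and single genes such as Krt4, Prtn3, Cidec and Car3 stand far from their lists.

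The plot of cell type markers shows that the far members are single genes. Krt4 read 3308 and 3210.1 in wild type, and no other tested gene of squamous and airway epithelium was called. The list's sum, 3736 and 3614 in wild type and 510.3 and 454 in MOER, was in wild type for the most part Krt4. Among neutrophil genes Prtn3 lay farthest from the rest.

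The oil arrays of the same genotypes, which share no array with the PPT comparison, showed which differences were there without the agonist. Of the genes called in both, 291 had the same sign and 229 opposite signs. Together these were 9.98% of the genes called under PPT and 64.3% of those called under oil. Over all genes, 16.8% were called higher and 20.5% lower under PPT. The 2 comparisons share each gene's spread in the fit, so their calls are not independent. Per gene, 300 were higher (2.14%) and 509 lower (3.64%) in MOER under oil. H2-Ea was present in MOER livers with and without PPT. Sult2a3 read 51281 and 43095 in wild type and 284 and 235 in MOER under oil, so its low level in MOER was also there without PPT. Cyp4a12a read 1434 and 1313 in MOER oil arrays and 30.2 and 13.9 in wild type oil arrays, and Cyp4a12b 1189 and 952 in the former and 22.9 and 18.5 in the latter. Nat8, an acetyltransferase gene, read 25 and 9.44 in wild type and 658 and 631 in MOER under oil and 18.7 and 1.22 in wild type and 528 and 504 in MOER under PPT. It was at least 12-fold higher in MOER under oil and at least 9.23-fold under PPT. These 5 genes separated the genotypes under both treatments, as their choice by calls of the same sign under both brings about.

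Other genes changed the sign of their genotype difference. Tfrc, the receptor that takes up transferrin iron, read 540.2 and 555 in wild type and 1756 and 1743 in MOER under oil, a difference of 1.65 ± 0.094, against 1385 and 1335 in wild type and 313 and 364 in MOER under PPT (-1.96 ± 0.094). Cyp7b1 read 412 and 367 in wild type and 895 and 866 in MOER under oil (1.15 ± 0.098), so MOER lay above wild type without PPT and below it with PPT. Cyp3a13 read 2979 and 2932 in wild type and 1135 and 1017 in MOER under oil (-1.45 ± 0.092), the reverse of its PPT difference.

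Dio1, which activates thyroid hormone, read 1699 and 1606 in wild type and 576 and 537 in MOER under oil (-1.54 ± 0.13) and 396 and 357 in wild type and 934 and 827 in MOER under PPT (1.19 ± 0.13). Angptl4, an inhibitor of lipoprotein lipase, read 422 and 407 in wild type and 166 and 158 in MOER under oil (-1.28 ± 0.17) and 240.2 and 228 in wild type and 499 and 488 in MOER under PPT (1.03 ± 0.17). In these 5 genes the interaction was called, with adjusted p from 4.76e-08 for Tfrc to 5.11e-05 for Angptl4. The genes were chosen for called differences of opposite sign, so these p-values follow from the choice and are not separate support.

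The interaction also covered the lists. Of the 17 cholesterol synthesis genes 1 was called higher under oil, and 12 had a PPT difference above the oil difference. Of the 21 chaperone genes 7 were higher and 1 lower under oil, where their median was 0.16, and 16 had a PPT difference below the oil difference. Translocation genes gave 20 of 28, cell cycle genes 12 of 23 and interferon-induced genes 16 of 21 such members, the last in the higher direction. Over all genes the shares were 12.7% in the higher direction and 11.2% in the lower. The term contains the PPT difference, so these counts are not independent of the PPT calls of the lists. Under oil, MOER livers had 12 of 13 acinar genes higher, so values of the interaction rest on oil arrays that also hold pancreatic transcripts, and their part in it was not tested. Of these 13 genes 7 were dim in both wild type and MOER under PPT. The MOER oil arrays alone could bring such genes into the test, so that count is in part set by the filter.

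Set against ERKO livers given PPT, MOER livers given PPT differed at 4225 probe sets (22.1%), and at 1848 to 2394 when any 1 of the 4 arrays of that comparison was left out. Both comparisons use the MOER PPT arrays, so a shared direction is not independent support, and the values are given side by side. H2-Ea was at least 44.5-fold higher in MOER than in ERKO. Dmbt1, a secreted scavenger receptor domain protein, read 28.1 and 25.8 in ERKO PPT arrays, 28.3 and 20.2 in the wild type arrays and 314 and 359 in the MOER arrays. Adgrg7, an orphan receptor gene, read 24.2 and 24.8 in ERKO, 32.8 and 32.2 in the wild type arrays and 281 and 274 in the MOER arrays. Both were thus brightest in MOER and dim in the other genotypes under PPT, at least 6.03-fold and 4.97-fold above wild type.

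Krt4 read 451 and 435 in ERKO PPT arrays, so MOER was at least 7.33-fold below ERKO too. The pseudogene Serpina4-ps1 read 438 and 426 in ERKO and 387 and 389.6 in the wild type arrays and 12.3 and 17.9 in the MOER arrays, at least 6.42-fold below wild type. For other genes MOER and ERKO lay closer together, although Cyp7a1 was still called lower in MOER than in ERKO. Cyp7a1 read 1905 and 1865 in ERKO PPT arrays (-0.44 ± 0.087), Lifr 1467 and 1468 (-0.10 ± 0.083, not called), Car3 7212 and 7497 (-0.18 ± 0.11, not called) and Slc34a2 29.2 and 25.6, dim as in MOER.

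Lists differed in this respect. Of the cholesterol synthesis genes 11 of 17 were lower in MOER than in ERKO under PPT and 1 higher (median -0.48), and per gene over the whole array 11.2% were higher and 10.4% lower. Of the chaperone genes 8 were higher and 3 lower (median 0.10), and of the interferon-induced genes 12 were higher and 0 lower (median 0.45). All 14 muscle genes were lower in MOER than in ERKO, where they summed to 20114 and 19021, and the part of muscle RNA in this comparison was not tested. Of these genes 8 were dim in both wild type and MOER under PPT. The filter asked for 2 bright arrays, so the ERKO PPT arrays alone could bring such genes into the test. The count is therefore in part set by the filter.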

How the data were processed

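The deposited table holds 1 intensity per probe set and array (345780 values, 389 of them 0), which the authors deposited on a linear scale; their probe summarisation and normalisation are not given in the sources used here. The authors, per the labels' protocols, tested with Cyber-T at 99.99% confidence and a minimum change of 2-fold. Array medians were close, so the values were not normalised again. The array number, 2 a group, limits the precision. Names come from the platform annotation: 21780 probe sets had 1 symbol, 1605 several and 5430 none, and 21689 of the former matched the RefSeq table of GRCm38.p6. Of the 19119 probe sets tested, 15226 had 1 symbol, and a gene was read by its tested probe set of highest mean, 13987 genes in all. Of 707 genes with several probe sets, 2 had probe sets called in opposite directions.

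Intensities were transformed as log2(intensity + 16). One limma fit of 6 group means over 12 arrays (limma 3.58.1, R 4.3.3, lmFit and eBayes, 6 residual degrees of freedom, 10.47 after moderation) gave two-sided p-values, adjusted by Benjamini-Hochberg over all tested probe sets and called under 0.05. Every adjusted p in the text is from this fit. The script was tested on simulated data. There were 43 gene lists with 748 symbols, 28 of pathways and 15 of cell types. The members and lists were chosen with earlier results of these data known, and a list is described by counts and its median, with no set test. Genes were named by these rules: the 15 highest and 15 lowest called genes with arrays raised to at least their 40th percentile, leaving out predicted names (1 was passed over among the lowest); up to 4 members of a list with the smallest p, and members not called where a sentence is about them; 5 genes each called under PPT and oil with opposite signs, with the same sign, and in MOER minus ERKO with the same sign; and Esr1, Srebf1, Fasn, Scd1, Cyp7a1 and Cyp8b1 whatever their values. Other genes, and the members not called, were picked with their values known. Dim means that both arrays of a group were under the 40th percentile of that array, which held in both genotypes for 415 genes.

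Alternatives were other added constants, filters, normalisation, a trended and a separate fit, a replicate block, single arrays left out, a Cyber-T-style test, a 2-fold minimum and the mean of a gene's probe sets.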

Additional observations from a re-analysis of the deposited data

Results flagged for a closer look

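These results stood out because the genotype difference under PPT differed from that under oil by the interaction term of the fit, which called 4124 probe sets. No group has enough arrays for a test of single arrays that stand apart.

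The 5 named genes with opposite signs were chosen for those signs, so a called interaction follows from the choice. The difference under PPT minus that under oil was -3.61 for Tfrc and -2.91 for Cyp7b1 on the log2 scale. Cyp3a13 (3.02), Dio1 (2.73) and Angptl4 (2.30) were higher under PPT than under oil by these amounts. Among genes with the same sign under both treatments, the difference of H2-Ea was smaller under PPT (-1.06, a fitted value into dim arrays whose size is not measured) and that of Sult2a3 less negative (1.38).

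The pathway lists given here are those in which at least 1 in 2 tested members had the interaction called in the same direction. Over all genes 12.7% were called in the higher direction and 11.2% in the lower. These counts use the same PPT arrays as the PPT calls and do not add independent support to them. Members whose difference was higher under PPT numbered 8 of 13 for bile acid synthesis (2 lower), 12 of 17 for cholesterol synthesis (1 lower), 8 of 16 for growth hormone signalling (4 lower), 10 of 19 for female-biased genes (4 lower) and 10 of 15 for drug-metabolising P450s (0 lower). Glutathione S-transferases gave 11 of 17 (1 lower), interferon-induced genes 16 of 21 (0 lower), coagulation 14 of 21 (1 lower), complement 12 of 22 (1 lower) and gluconeogenesis 11 of 17 (4 lower). Members whose difference was lower under PPT numbered 16 of 21 for endoplasmic reticulum chaperones, 20 of 28 for translocation and export and 12 of 23 for the cell cycle, with 0 higher in each of these 3 lists.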

How the results depend on the processing

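The count for MOER minus wild type under PPT, 6794, was 1229 with a 2-fold minimum and 1230 by the Cyber-T-style test at the authors' threshold, which by construction count fewer probe sets, and 4418 to 5220 with 1 of its arrays left out. In the other alternatives it was 6009 to 8741, the last with only the groups compared in the fit. The count under oil, 1082, was 696 with no filter, 1670 with median centring (782 higher, 888 lower), 3332 without both ERKO oil arrays (1264 higher, 2068 lower, chosen after seeing the data) and 249 to 433 with 1 array left out. The interaction count was 2959 to 3291 and MOER minus ERKO 1848 to 2394 with 1 array left out, where the lone array of a group is assumed to vary like the others. The cause of these shifts was not tested. Of 639 list members tested, 418 were called, and 426 with the mean of a gene's probe sets. Over all 13987 genes 16.8% were called higher and 20.5% lower. The lists were chosen with earlier results of these data known, so their larger share is not a result about them.

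Esr1 stayed called and lower in the 14 settings in which single genes were fitted again, which leave out the Cyber-T-style test, the 2-fold minimum and the mean of probe sets. Of 195 named genes 19 changed their side of the threshold or their sign in at least 1 of 14 settings, and 3 values of genes not called in the reported fit turned sign: Sox9 was -0.074 without MOER PPT replicate 1 and -0.037 without wild type PPT replicate 2, and Msln -0.004 without MOER PPT replicate 1, and their highest values were 0.222 and 0.367 without MOER PPT replicate 2. H2-Eb1 and Cela1, not called above, were called in 4 and 7 of the settings, Cd74 in 1. The replicate numbers did not pair the arrays of the 2 PPT groups (correlation of deviations -0.063), and with a replicate block 6868, 1089, 4122 and 4170 probe sets were called in the 4 comparisons, with Cela1 and Eno3 added among the named genes. The fit has 2 arrays a group, and dim genes give bounds only.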

Other observations

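Clock genes, which set the daily rhythm of liver transcription, were called in both directions under PPT: 6 of 18 were higher in MOER and 4 lower (median 0.18), and the number lower was 2 without wild type PPT replicate 2 or without MOER PPT replicate 1. The repressor gene Bhlhe40 read 76 and 49 in the wild type arrays and 368 and 387 in the MOER arrays (2.35 ± 0.16, adjusted p = 1.44e-06). The output factors Tef and Dbp read 205 and 206 in the wild type arrays and 471 and 479.6 in the MOER arrays for Tef and 219.6 and 235 in the wild type arrays and 499.6 and 436 in the MOER arrays for Dbp, and the repressor Nr1d1 226 and 201 in the wild type arrays and 390.0 and 399.9 in the MOER arrays. Their differences were 1.15 ± 0.12, 0.99 ± 0.11 and 0.84 ± 0.095. The core activator Arntl was not called (-0.014), and the lower members, chosen after their values were seen, were Clock (-0.59), Nfil3 (-0.49), Rora (-0.28) and Usp2, at least 2.54-fold. The sources used here do not give the hour at which livers were taken.

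Transcription factors that define hepatocytes gave 5 of 13 higher and 2 lower in MOER (median 0.26). Cebpa, a factor of mature hepatocytes, read 376 and 409 in the wild type arrays and 972 and 966 in the MOER arrays (1.27 ± 0.10). Tbx3, of pericentral hepatocytes, read 92 and 94.2 in the wild type arrays and 182 and 204 in the MOER arrays (0.94 ± 0.090) and Foxa3 209.6 and 214 in the wild type arrays and 346 and 363 in the MOER arrays (0.70 ± 0.12). Onecut2 was lower with 496 and 455 in the wild type arrays and 258 and 249 in the MOER arrays (-0.87 ± 0.10), as was Gata6 (-0.34), and Prox1 (0.55) and Onecut1 were higher, the last 3 chosen after their values were seen. The number lower was 1 without wild type PPT replicate 1, wild type PPT replicate 2 or MOER PPT replicate 1.

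Immediate early and heat shock genes, which can respond to handling, had 4 of 13 higher and 6 lower (median -0.34). Hsph1, a heat shock chaperone, read 909 and 879.6 in the wild type arrays and 409 and 451 in the MOER arrays (-1.03 ± 0.13), Jun 362 and 373 in the wild type arrays and 124 and 196 in the MOER arrays (-1.16 ± 0.17) and Zfp36, which destabilises messenger RNA, 198 and 188 in the wild type arrays and 350.4 and 296 in the MOER arrays (0.69 ± 0.11). Egr1 (0.24), Hspb1 (0.67) and Junb were the other higher members, chosen after their values were seen. The number higher was 2 without any 1 of the 4 arrays and the number lower 3 without wild type PPT replicate 2.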
